A study of Mus musculus with 48 samples.

Results

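De novo lipogenesis is the pathway that builds fatty acids from acetyl-CoA, and 10 mouse genes of this pathway were followed across 6 tissues after gastric bypass surgery. The genes were taken by symbol, with 1 row per Ensembl ID in each tissue table, and they are 10 of the 15541 genes listed in at least 1 of the 6 tables. All 10 were listed in liver, white adipose tissue (WAT) and muscle. In the duodenum, jejunum and ileum 9 of the 10 were listed, and Thrsp was not.

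The data were RNA-seq values in CPM, read counts scaled to the total of each library, from male C57Bl6 mice with diet-induced obesity, kept on a high fat diet and given Roux-en-Y gastric bypass (RYGB), which routes food past the duodenum, or a sham operation. Both groups received a liquid elemental diet after surgery and were then returned to the high fat diet, and the labels leave unclear which of these diets the mice were on when sampled. All 48 libraries were labelled as 9 days after surgery, and the mice had fasted before they were killed in the morning. Liver, WAT (subcutaneous fat) and gastrocnemius muscle each had 4 libraries in the RYGB group and 4 in the sham group. Duodenal and jejunal villi each had 3 RYGB and 4 sham libraries, and villi of the ileum had 5 and 5. The villi were scraped from the gut wall after a short time in cold EDTA. The labels do not say which libraries came from the same mouse or whether replicates were separate animals, so p-values measure the spread between these samples, which may be technical.

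In lipogenesis, citrate from the mitochondrion is cleaved to acetyl-CoA by ATP citrate lyase (Acly), and cytosolic malic enzyme (Me1) supplies part of the NADPH. Acetyl-CoA carboxylase makes malonyl-CoA, from Acaca in the cytosol for synthesis and from Acacb at the mitochondrial surface, where malonyl-CoA holds back fatty acid oxidation. Fatty acid synthase (Fasn) builds palmitate, Elovl6 lengthens palmitate to stearate, and the stearoyl-CoA desaturases Scd1 and Scd2 turn stearate into oleate. The transcription factor encoded by Srebf1 and the nuclear protein encoded by Thrsp promote expression of the enzymes. The pathway is known to be active in fed liver and fat and to respond to insulin and carbohydrate.

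On build GRCm38, 4 of the 10 genes lie on chromosome 11: Srebf1 (chr11:60199089-60222581, minus strand), Acaca (chr11:84129672-84401651, plus strand), Acly (chr11:100476353-100528000, minus strand) and Fasn (chr11:120805846-120824547, minus strand). Elovl6 lies at chr3:129532355-129638495 on the plus strand, Acacb at chr5:114146535-114250761 on the plus strand, Thrsp at chr7:97412938-97417730 on the minus strand and Me1 at chr9:86581371-86695953 on the minus strand. Scd2 (chr19:44293674-44306864, plus strand) and Scd1 (chr19:44394455-44407879, minus strand) are neighbours with 87590 bases between them. Of the 50-base words in the coding transcripts of Scd1, 3% also occur in those of Scd2. Reads shared between Scd1 and Scd2 were not measured. Scd1 was far more abundant than Scd2 in sham WAT and sham liver, so shared reads could weigh on Scd2 there. Acaca and Acacb transcripts share 0 words of 50 bases.

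Promoter sequence from RefSeq (GRCm38.p6) matched 8 of the 10 genes, with 11 start sites, all but Scd1 and Scd2. The sequences of a regulator, a coactivating protein and an enzyme that were all lower in the RYGB liver are shown, from 250 bases before the start site to the last base before it, 5′ to 3′. Capitals mark CCAAT or its reverse complement ATTGG, the box bound by the factor NF-Y. The Srebf1 window is chr11:60210472-60210721, the start site farthest downstream of the 3 that were matched. The Thrsp window is chr7:97417551-97417800 and the Fasn window is chr11:120824548-120824797, and all 3 are on the minus strand.
Srebf1: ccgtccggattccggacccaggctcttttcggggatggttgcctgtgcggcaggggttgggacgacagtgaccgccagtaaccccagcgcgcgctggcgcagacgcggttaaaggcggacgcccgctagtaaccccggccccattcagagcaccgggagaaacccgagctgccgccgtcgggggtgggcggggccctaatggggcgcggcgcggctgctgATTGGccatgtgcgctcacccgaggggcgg
Thrsp: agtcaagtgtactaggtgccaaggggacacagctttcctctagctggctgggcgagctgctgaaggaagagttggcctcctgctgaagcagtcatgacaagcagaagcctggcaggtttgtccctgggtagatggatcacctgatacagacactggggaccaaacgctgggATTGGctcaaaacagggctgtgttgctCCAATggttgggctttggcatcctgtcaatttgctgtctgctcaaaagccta
Fasn: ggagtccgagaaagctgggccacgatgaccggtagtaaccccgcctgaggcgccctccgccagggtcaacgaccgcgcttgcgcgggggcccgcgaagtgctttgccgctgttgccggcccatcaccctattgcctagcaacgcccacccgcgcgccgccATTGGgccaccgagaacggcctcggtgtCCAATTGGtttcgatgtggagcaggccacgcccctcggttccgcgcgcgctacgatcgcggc
CCAAT was found on either strand in 6 of the 11 windows, from 5 of the 8 genes, and in 33.8% of the 32851 promoter windows of the same length in the genome. The 3 windows shown are among those that hold it. Acly, also called lower in the liver, had no match in its window. The Srebf1 window chr11:60220628-60220877 and the Me1 window chr9:86695915-86696164 had none either. The Fasn window held 3 matches, beginning 90, 62 and 59 bases before the start site, of which the last pair overlap on opposite strands. The Thrsp window held 2, beginning 79 and 52 bases before the start. The GC box GGGCGG occurred in 4 of the 11 windows, with 32.7% of all windows holding it, and the E-box CACGTG in 0 of 11, with 6.02% of all windows holding it. Both strands were searched. These matches are letters in a window, and nothing in the data measured binding there.

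The levels of the 10 genes are given by tissue first, as the sham group shows them. Each table was normalized on its own, so levels set across tissues are a description with no test. Per kilobase of exon, mean CPM of Scd1 in the sham group was 8071 in WAT and 2763 in liver, against 206 in muscle and 2.78 in the ileum. Fasn, the synthase, had 217 CPM per kilobase in sham WAT, 110 in sham liver and 1.03 to 6.71 in the other 4 tissues. Acly had 121 in liver and 60.3 in WAT, and Thrsp 211 in liver and 133 in WAT. Other orders were seen for Elovl6, highest in the duodenum at 54.0 CPM per kilobase and lowest in muscle at 0.284, Acacb, highest in muscle at 32.2, and Srebf1, highest in the jejunum at 66.7. Me1 was also highest in muscle, at 69.3, and lowest in the ileum, at 1.63.

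Neighbours in these orders mostly overlapped between libraries. For Srebf1 the sham ranges of each tissue overlapped those of the next tissue down the whole order, from 376 CPM ± 94.9 (SD, n = 4) in the jejunum to 160 ± 42.4 (SD, n = 4) in the duodenum. Gaps with no overlap in CPM separated WAT from muscle in Thrsp, WAT from duodenum in Acly, liver from muscle in Fasn, WAT from muscle in Elovl6, muscle from ileum in Scd2 and liver from duodenum in Acacb. Acaca had a gap between liver (82.8 CPM ± 34.9, SD, n = 4) and muscle (9.62 ± 4.10, SD, n = 4) and another between muscle and ileum (4.54 ± 1.65, SD, n = 5). In Me1 and Scd1 every tissue overlapped the next.

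**Figure D1:**
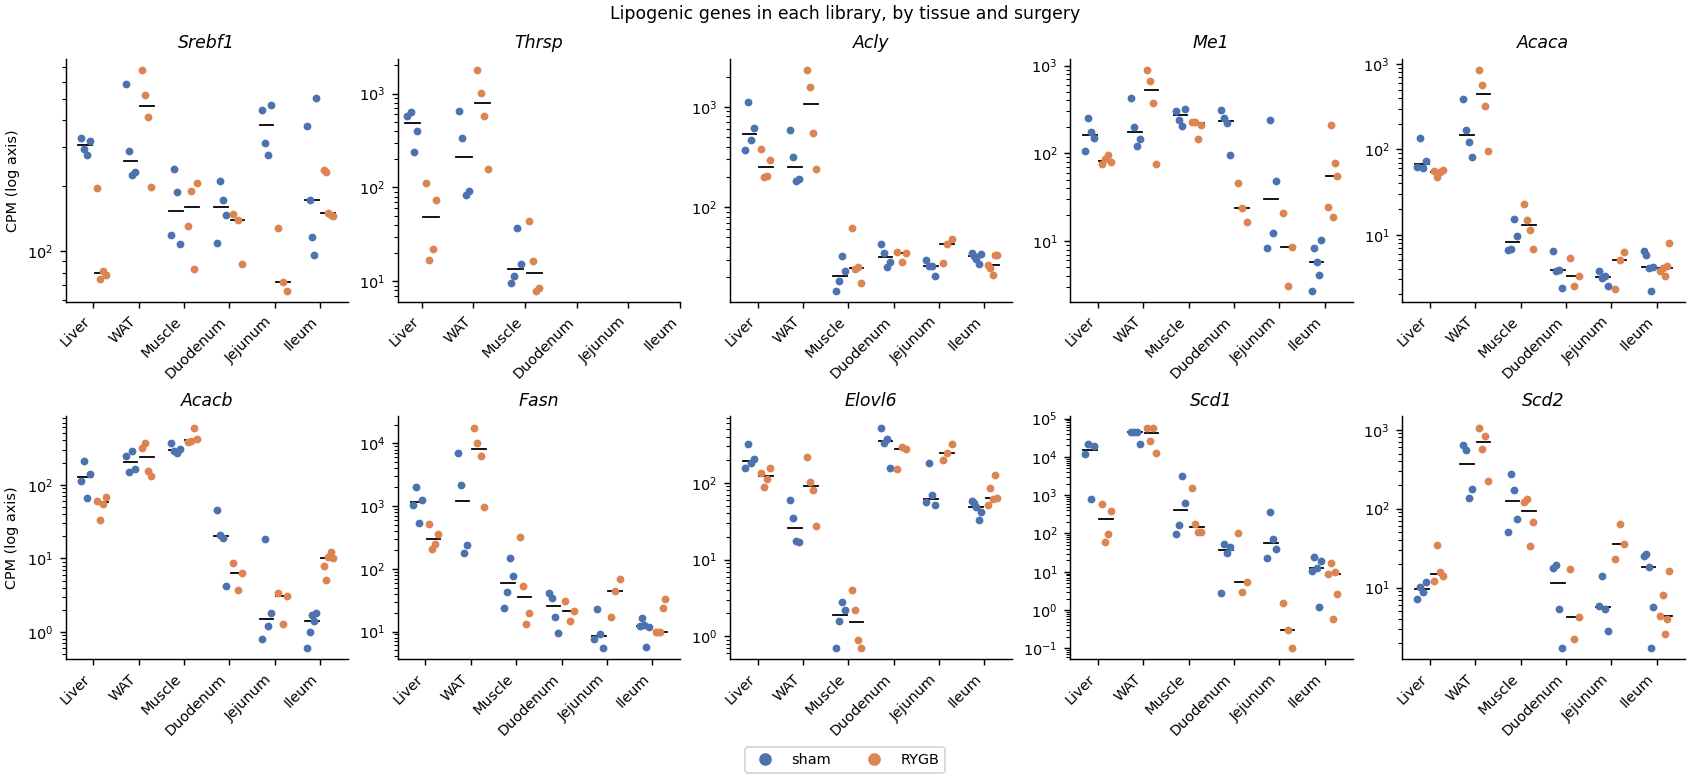
CPM (log axis) of each of the 10 genes in each of the 48 libraries, by tissue, with sham libraries in blue, RYGB libraries in orange and a black bar at each group's median. Thrsp has no points in the 3 gut tissues, where it was not listed, and Scd1 in the jejunum shows RYGB libraries between 0.1 and 1.5 CPM under sham libraries between 22.3 and 366.

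Expression in the RYGB group was compared with the sham group within each tissue, to ask which lipogenic genes differ after surgery. The test was limma on log2(CPM + 1) over all genes that averaged 1 CPM or more in the tissue, and a gene was called when its Benjamini-Hochberg adjusted p was under 0.05 and its fold change at least 1.5. Fold changes on this scale understate the change of genes with low CPM. These are bulk samples, in which fewer cells of a type and less RNA per cell cannot be told apart.

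**Figure D2:**
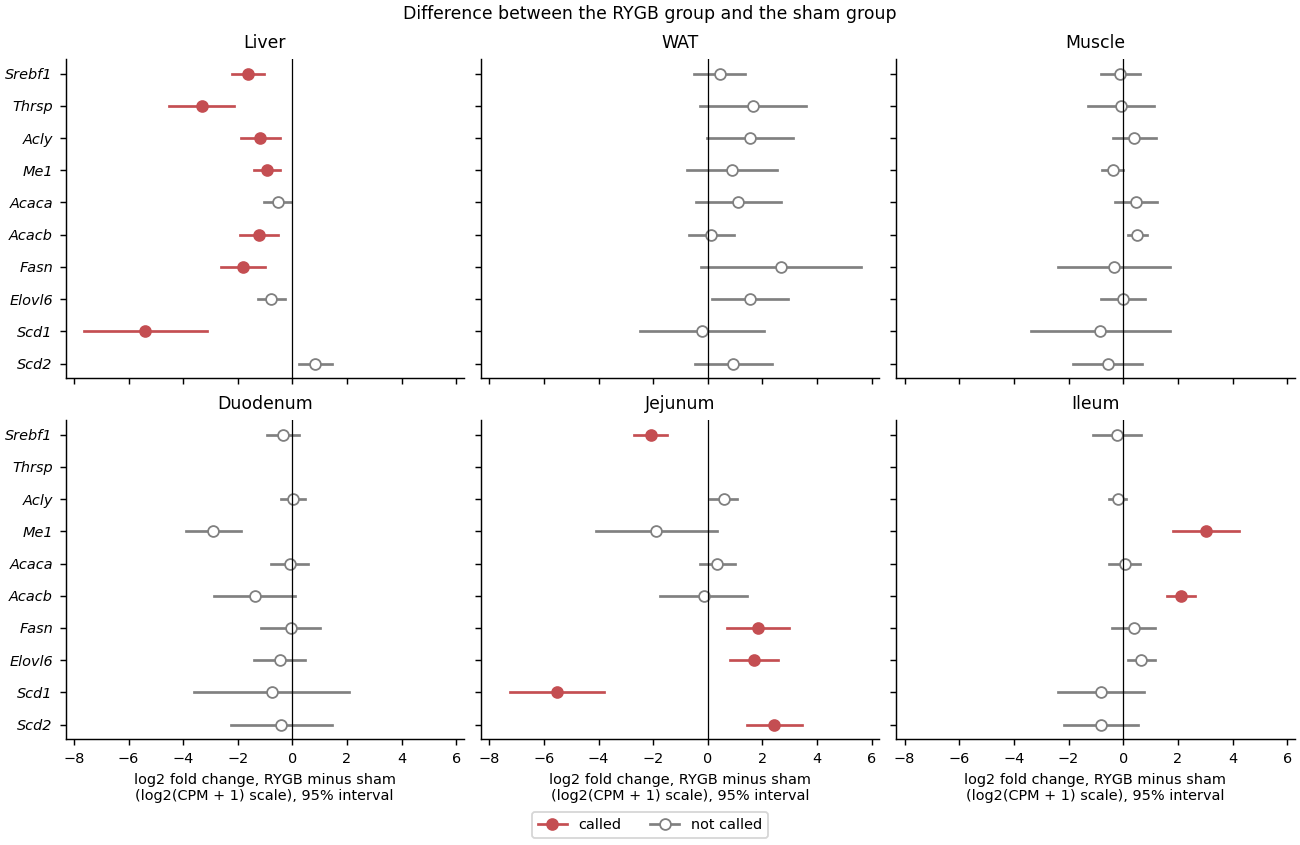
Log2 fold change of each gene (RYGB minus sham, on the log2(CPM + 1) scale) with its 95% interval in the 6 tissues, red where called and open grey where not called. In the liver 7 genes are called lower, in the jejunum 2 lower and 3 higher, in the ileum 2 higher, and in WAT, muscle and duodenum 0 are called.

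In the liver 7 of the 10 genes were lower in the RYGB group and 0 were higher. The 7 were Srebf1, Thrsp, Acly, Me1, Acacb, Fasn and Scd1. They cover the regulators, the precursor supply, palmitate synthesis and desaturation and, of the carboxylases, Acacb but not Acaca. Of all 11807 genes tested in the liver 7.08% were called, made up of 5.79% higher and 1.29% lower. The median log2 fold change was -1.20 over the 10 genes and 0.13 over all genes. In 6 of the 10 genes every RYGB library lay below every sham library, as in 3.05% of all genes, and in 1 gene every RYGB library lay above (16.4% of all genes had groups that did not overlap, in either direction).

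Scd1 had the largest difference of the 10 in the liver. Its CPM was 607, 59.1, 94.3 and 387 in RYGB replicates 1 to 4 and 11755, 22110, 818 and 19377 in sham replicates 1 to 4. All RYGB livers were below all sham livers, and sham replicate 3 stood far below the other 3 sham libraries. The log2 fold change was -5.39 ± 1.02 (SE, adjusted p = 0.0139), and without sham replicate 3 it was -6.48 (adjusted p = 0.0012). Sham replicate 3 was also the lowest sham library in Thrsp and Fasn, and it was the lowest in 6 of the 10 genes.

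Among the regulators, Srebf1 had 196, 74.6, 81.3 and 77.6 CPM in the RYGB livers and 331, 294, 278 and 323 in the sham livers. The groups did not overlap, and RYGB replicate 1 lay between the other RYGB libraries and the sham libraries. Srebf1 differed by a log2 fold change of -1.63 ± 0.26 (SE, adjusted p = 0.0077). Thrsp had 112, 16.8, 22.0 and 74.2 CPM in the RYGB group and 575, 637, 241 and 398 in the sham group. The groups again did not overlap, with a log2 fold change of -3.33 ± 0.54 (SE, adjusted p = 0.0078). In these genes, as in Scd1, RYGB replicates 2 and 3 had less than replicate 1.

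The enzyme Fasn had 512, 206, 248 and 356 CPM in the RYGB livers and 1050, 1993, 547 and 1242 in the sham livers, with no overlap. The log2 fold change of Fasn in the liver was -1.81 ± 0.37 (SE, adjusted p = 0.0178). Me1 had 76.2, 86.0, 96.4 and 78.9 CPM against 105, 251, 176 and 148, also with no overlap, and a log2 fold change of -0.94 ± 0.22 (SE, adjusted p = 0.0275). Acly and Acacb passed the test with groups that overlapped in 1 pair of libraries each. Acly, which cleaves citrate, had 199 to 381 CPM in the RYGB group and 368 to 1116 in the sham group (log2 fold change -1.17 ± 0.32, SE, adjusted p = 0.0456). Acacb had 32.7 to 67.7 CPM against 66.7 to 212 (log2 fold change -1.22 ± 0.32, SE, adjusted p = 0.0397).

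Acaca, Elovl6 and Scd2 did not pass the test in the liver. Acaca had 47.6 to 57.0 CPM in the RYGB group and 61.2 to 135 in the sham group, and although the groups did not overlap, the log2 fold change of -0.54 had an adjusted p of 0.137. Elovl6 had a log2 fold change of -0.77 (95% interval -1.28 to -0.27, adjusted p = 0.0586). Scd2 was the gene of the 10 with a positive value. Its CPM was 12.2, 34.5, 15.8 and 14.0 in the RYGB livers and 7.2, 10.3, 8.8 and 11.6 in the sham livers, so all RYGB libraries lay above all sham libraries (13.4% of all genes did). Its log2 fold change was 0.84 (95% interval 0.23 to 1.45, adjusted p = 0.0794).

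In each of the 3 sequencing lanes that hold both liver groups, the 7 called genes were lower in the RYGB libraries. The smallest difference within a lane was -0.27 (log2) for Me1 in lane 4 and the largest -6.05 for Scd1 in lane 3. Srebf1, Thrsp and Scd1 were called in each of the 14 other fits run, Fasn in 12, Me1 in 10, Acacb in 9 and Acly in 6. Elovl6 was called lower in 3 of these fits, and Scd2 was called higher in 3, with the lane as a term, with the replicate block and without RYGB replicate 1. With RYGB replicate 3 or sham replicate 4 left out, Srebf1, Thrsp and Scd1 were the only genes of the 10 called. Of all genes tested, 329 and 387 were then called in place of 836. Without RYGB replicate 2, sham replicate 2 or sham replicate 3, 5 of the 10 were called, and the share of all genes called in these fits is not given here. Beside these genes, the summed level of 8 macrophage marker genes was 703 to 1869 CPM in the RYGB livers and 317 to 524 in the sham livers, and 3 of the 8 (Cd68, Lyz2 and Cd14) were called higher. The sum of 1869 CPM was in RYGB replicate 2, the library with the most Scd2, and the other RYGB livers had at most 874.5. The 7 hepatocyte markers summed to 96012 to 126478 and 91704 to 109224 CPM, with 0 of 7 called. The part of the macrophage signal in the result was not tested.

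The genes around the pathway in the liver were counted by list. Of 15 regulators of lipogenesis 1 was lower, Mlxipl, which encodes the carbohydrate-responsive factor ChREBP, with 142 to 223 CPM in the RYGB group and 262 to 371 in the sham group (log2 fold change -0.60, adjusted p = 0.0485). Of 10 genes of precursor and NADPH supply 1 was lower, Acss2, which makes acetyl-CoA from acetate (log2 fold change -1.67, adjusted p = 0.0195). Of 11 other genes of elongation and desaturation 1 was lower, the elongase gene Elovl3, with 11 to 46.4 CPM against 71.4 to 263 (log2 fold change -2.76, adjusted p = 0.0084). Of 8 genes of triglyceride assembly 1 was lower, the lipid droplet gene Pnpla3, with 0.6 to 1.0 CPM against 1.5 to 27.7 (log2 fold change -2.64, adjusted p = 0.0292). Of 7 genes of malonyl-CoA control, which are subunits of AMP kinase and malonyl-CoA decarboxylase, 0 were called. The medians of these 5 lists ran from -0.20 to 0.16, against 0.13 for all genes.

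In WAT 0 of the 10 genes were called, where 24.1% of the 13379 genes tested were, and 1 of the 10, Elovl6, had an unadjusted p under 0.05. The median log2 fold change was 1.03 over the 10 genes and 0.11 over all genes. The groups overlapped in all 10 genes, where 41.2% of all genes had groups that did not, 26.1% with all RYGB libraries above. Libraries of the same group differed widely. Fasn had 17977, 10099, 6316 and 961 CPM in RYGB replicates 1 to 4 and 6939, 2158, 179 and 240 in sham replicates 1 to 4. The groups overlapped, RYGB replicate 4 lay far below the rest of its group, and sham replicate 1 lay above the other sham libraries. The log2 fold change of Fasn was 2.68 with a 95% interval of -0.25 to 5.61 (adjusted p = 0.126).

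Elovl6 had 219, 103, 80.3 and 27.5 CPM in the RYGB group of WAT and 59.8, 34.7, 17.7 and 17.0 in the sham group, with a log2 fold change of 1.54 ± 0.61 (SE, adjusted p = 0.0728). Acly had 2318, 1570, 542 and 241 CPM against 587, 312, 183 and 192 (log2 fold change 1.55, adjusted p = 0.104). Thrsp had 155 to 1775 CPM in the RYGB group and 83.8 to 653 in the sham group (log2 fold change 1.65, adjusted p = 0.151). RYGB replicate 4 was the lowest RYGB library in 10 of 10 genes and sham replicate 1 the highest sham library in 8 of 10. Scd1, the most abundant of the 10 in WAT, had 58762, 26138, 56745 and 12604 CPM in the RYGB group and 45882, 46075, 44186 and 21784 in the sham group. Its log2 fold change of -0.22 had a 95% interval of -2.50 to 2.05.

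The other values in WAT also lay within wide intervals. Acaca had a log2 fold change of 1.12 (95% interval -0.43 to 2.67), Me1 0.87 (-0.78 to 2.53), Scd2 0.94 (-0.47 to 2.35), Srebf1 0.43 (-0.51 to 1.38) and Acacb 0.12 (-0.71 to 0.94). Without RYGB replicate 4, 5 of the 10 genes were called higher (Thrsp, Acly, Me1, Acaca and Elovl6, with log2 fold changes of 1.62 to 2.32), and without sham replicate 1, Fasn was. The share of all genes called in these fits is not given here, so the counts cannot be set against it. In the lanes holding both groups, Fasn differed by 1.05 (lane 5, 2 libraries against 2) and 1.99 (lane 6, 1 against 1), and Elovl6 by 0.98 and 0.66. With the lane as a term 1 gene, Elovl6, was called higher (log2 fold change 0.87, adjusted p = 0.0220), also with no share of all genes given here. Me1 differed by 0.77 and -0.92 in the same lanes.

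Markers of other cells moved strongly in the same WAT libraries. The 8 B cell markers summed to 1054 to 2827 CPM in the RYGB group and 13 to 24 in the sham group, and the 8 T cell markers to 355 to 1352 and 12.5 to 22.3, with 8 of 8 called higher in each list. The 8 adipocyte markers summed to 8584 to 15337 CPM in the RYGB group and 17939 to 25928 in the sham group, with 2 of 8 called lower (Plin4 and Lep), and RYGB replicate 4 had the lowest sum. Of the 8 keratinocyte and sebocyte markers 5 were listed, and 2 were lower in the RYGB group (Krt5 and Dsp), as were 3 of 8 macrophage markers (Adgre1, Cd68 and Mrc1). The 5 brown adipocyte markers, of which 0 were called, summed to 133, 115, 52.9 and 28.9 CPM in RYGB replicates 1 to 4 and 69.1, 50.4, 16.1 and 34.8 in sham replicates 1 to 4, the same order within each group as Fasn. Fasn amounted to 11.2% to 117% of the adipocyte marker sum in the RYGB libraries and to 0.706% to 37.3% in the sham libraries. When each library was scaled to the adipocyte markers, an alternative chosen after the data were seen, 9 of the 10 genes, all but Scd1, were called higher, and 7915 of all genes were called in either direction. With the mean adipocyte marker level as a covariate 0 of the 10 were called. The share of all genes called with the covariate is not given here, so this count cannot be set against it. The part of the immune, skin and brown fat markers in the values of the 10 genes was not tested.

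**Figure D3:**
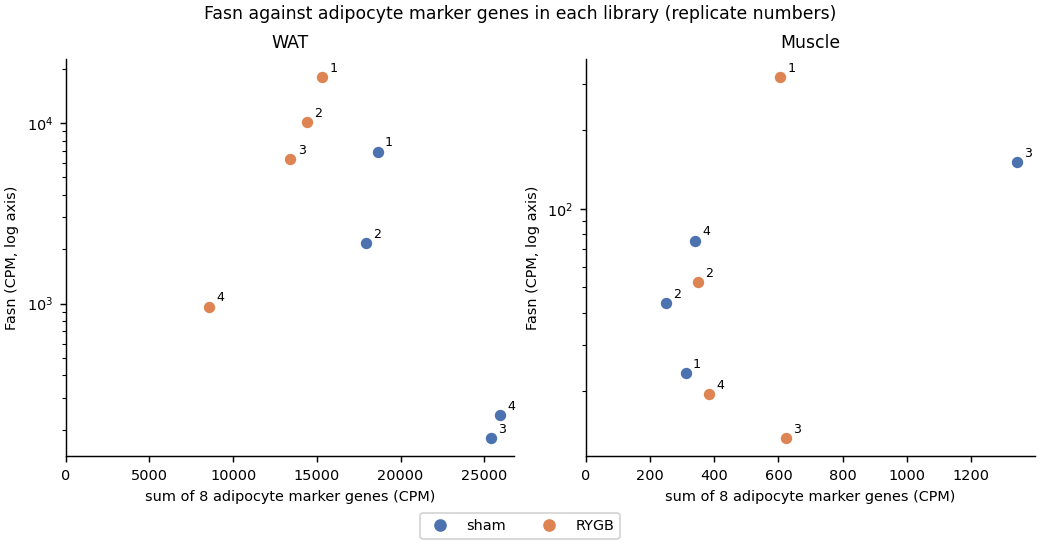
Fasn (CPM, log axis) against the summed CPM of 8 adipocyte marker genes in each library of WAT and of muscle, with replicate numbers beside the points, sham in blue and RYGB in orange. In WAT the 4 RYGB libraries lie at lower marker sums than the 4 sham libraries while Fasn overlaps, and in muscle sham replicate 3 lies apart at a marker sum of 1343 CPM.

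Around the pathway in WAT, 1 of 15 regulators was higher and 1 lower. Mlx, which encodes the partner of ChREBP, had a log2 fold change of 0.62 (adjusted p = 0.0181), and the thyroid hormone receptor gene Thrb one of -0.63 (adjusted p = 0.0299). Of 9 genes of precursor and NADPH supply, the mitochondrial malic enzyme gene Me2 was higher, with 37.0 to 71.9 CPM against 23.4 to 26.9 (log2 fold change 0.90, adjusted p = 0.0097). Me3, another mitochondrial malic enzyme gene, was lower at 0.7 to 1.5 CPM against 1.6 to 3.1 (log2 fold change -0.68, adjusted p = 0.0262). Of 12 genes of elongation and desaturation, 8 of triglyceride assembly and 8 of malonyl-CoA control, 0 were called. The list medians lay between -0.04 and 0.51, where the median of all genes was 0.11.

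In muscle 0 of the 10 genes were called, and the test called 0 of the 11966 genes measured there (0%, with 0 to 210 genes over the other fits). Acacb, the carboxylase form typical of muscle, was the gene of the 10 with an unadjusted p under 0.05. It had 381, 398, 599 and 413 CPM in the RYGB group and 375, 288, 272 and 305 in the sham group. All RYGB libraries lay above all sham libraries, as in 4.77% of all genes, and the log2 fold change was 0.52 (95% interval 0.17 to 0.86, adjusted p = 0.187). In lane 2, the lane of muscle with both groups, it was 0.25. The 7 skeletal muscle fibre markers summed to 110532 to 148630 CPM in the RYGB group and 156538 to 189310 in the sham group, with 0 of 7 called, and their part in the Acacb value was not tested.

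Scd1, Fasn and Thrsp varied widely in muscle within both groups. Scd1 had 1577, 181, 108 and 108 CPM in RYGB replicates 1 to 4 and 99.1, 170, 3127 and 644 in sham replicates 1 to 4. Fasn had 320, 52.4, 13.2 and 19.5 against 23.4, 43.5, 151 and 75.6. RYGB replicate 1 and sham replicate 3 were high in both genes, and they were also the libraries with the most of the adipocyte gene Adipoq, at 41.1 and 119 CPM where the other 6 had 5.3 to 18.4. The sum of all 8 adipocyte markers set sham replicate 3 apart, at 1343 CPM, but not RYGB replicate 1, at 606 CPM against 624 in RYGB replicate 3, the library with the least Fasn. Thrsp had 7.9 to 44.2 CPM in the RYGB group and 9.5 to 37.1 in the sham group, with the highest values in the same libraries. The 95% interval of the log2 fold change was -3.38 to 1.70 for Scd1 and -2.37 to 1.70 for Fasn. Within lane 2, with 2 libraries against 2, the difference was 2.03 for Scd1, 1.99 for Fasn and 1.29 for Thrsp, so the sign of the pooled values (-0.84, -0.34 and -0.08) turned.

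The remaining genes in muscle also overlapped between the groups. Me1 had 146 to 228 CPM in the RYGB group and 205 to 322 in the sham group, with a log2 fold change of -0.39 (95% interval -0.79 to 0.01, adjusted p = 0.349). Srebf1 had 83.5 to 207 CPM against 109 to 239, and Scd2 33.6 to 134 against 50.8 to 278. Acly (log2 fold change 0.41) and Acaca (0.45) also overlapped between the groups. Elovl6 was near the lower limit of the table, at 0.7 to 4.0 CPM over all 8 libraries. Of the 5 lists of genes around the pathway, with 15, 10, 9, 7 and 8 genes tested, 0 were called in either direction.

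Before the gut results, the segment labels were checked against position genes, which were chosen after their values had been seen. Gata4, known for the proximal small intestine, was at 105 to 183 CPM in the 10 ileum libraries and at 122 to 239 in the 7 jejunum libraries. Fabp6 and Slc10a2, which mark the distal ileum, were at 0 to 50.5 and 0.2 to 53.7 CPM in the ileum libraries, with Fabp6 at 0 in sham replicates 1 and 5. Fabp6 was not listed in the duodenum and jejunum tables, and Slc10a2 was at 0.3 to 2.5 CPM in the jejunum libraries. The libraries labelled as ileum thus held distal markers above the jejunum in some libraries and a proximal marker at a level like that of the jejunum in all 10. Pdx1, known for the duodenum, was at 14.5 to 160 CPM in the duodenum libraries in the jejunum at 7.4 in sham replicate 2 and at 0.5 to 4.1 in the other 6, and was not listed in the ileum table. Sham replicate 2 of the jejunum was also the highest sham library in 6 of the 9 lipogenic genes. Without it the same number of the 9, 5, were called, at log2 fold changes of 2.80 for Scd2, 2.23 for Fasn, 2.08 for Elovl6, -2.17 for Srebf1 and -4.74 for Scd1. The share of all genes called in that fit is not given here, so the count cannot be set against it.

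In the jejunum 5 of the 9 listed genes were called, 2 lower and 3 higher in the RYGB group, where 9.75% of the 10854 genes tested were called (5.13% lower and 4.62% higher). Scd1 and Srebf1 were lower, and Scd2, Elovl6 and Fasn were higher. The median log2 fold change was 0.35 over the 9 genes and -0.04 over all genes. In 4 of the 9, 2 in each direction, the groups did not overlap, as in 22.2% of all genes (12.5% below and 9.75% above).

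Scd1 had 1.5, 0.3 and 0.1 CPM in jejunum RYGB replicates 1 to 3 and 22.3, 366, 73.0 and 38.4 in sham replicates 1 to 4. The groups did not overlap, and sham replicate 2 was far above the rest. The log2 fold change was -5.53 ± 0.77 (SE, adjusted p = 0.0028), and -4.74 without sham replicate 2 (adjusted p = 5.7e-04). Scd2 went the other way, with 22.8, 63.1 and 36.0 CPM in the RYGB group and 5.9, 14.2, 5.4 and 2.8 in the sham group, again with no overlap. The log2 fold change of Scd2 was 2.43 ± 0.46 (SE, adjusted p = 0.0104).

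The desaturase that made up most of the sum therefore differed between the jejunum groups. Of Scd1 plus Scd2 per kilobase of exon, Scd1 took 0.309% to 6.85% in the RYGB libraries and 80.8% to 96.6% in the sham libraries. In the liver the same share was 65.7% to 98.2% in the RYGB group and 99.0% to 100% in the sham group. In the duodenum it was 59.4% to 86.6% and 14.9% to 96.6%, and in the ileum 15.4% to 73.6% and 31.9% to 79.2%, so those groups overlapped. In WAT it was 98.1% to 98.7% and 98.8% to 99.7%, and in muscle it ran from 40.7% to 95.3% over all 8 libraries. These shares are descriptions, with no test.

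**Figure D4:**
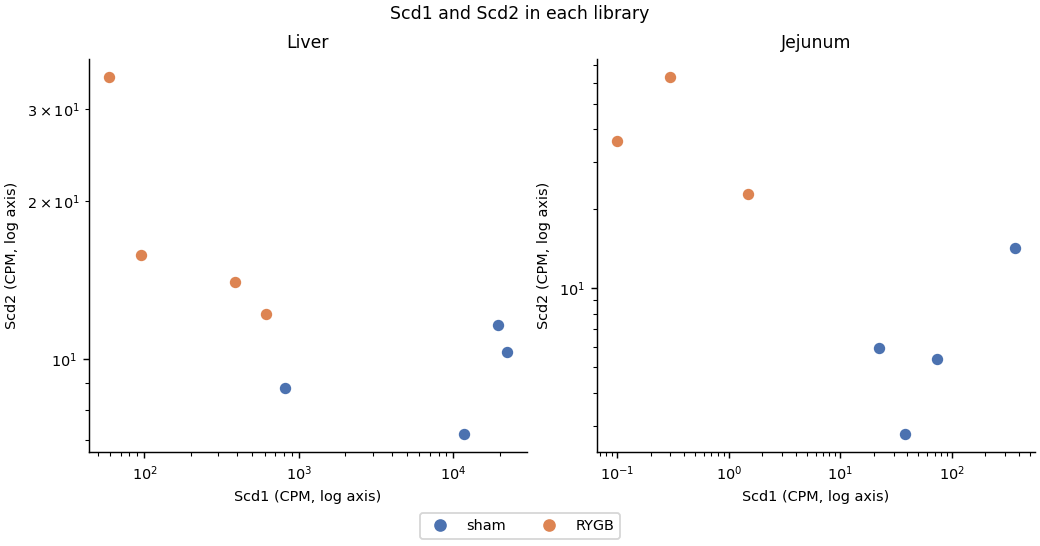
Scd1 against Scd2 (CPM, both axes log) in each library of the liver and the jejunum, sham in blue and RYGB in orange. In both tissues the RYGB libraries lie at lower Scd1 and higher Scd2 than all sham libraries, with Scd1 down to 0.1 CPM in the jejunum and 59.1 CPM in the liver.

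Srebf1 had 128, 72.7 and 65.9 CPM in the RYGB jejunum and 445, 314, 276 and 468 in the sham jejunum. The groups did not overlap, and the log2 fold change was -2.10 ± 0.27 (SE, adjusted p = 0.0020). Elovl6 had 198, 247 and 320 CPM in the RYGB group and 55.6, 180, 69.0 and 51.5 in the sham group, with no overlap and a log2 fold change of 1.68 ± 0.39 (SE, adjusted p = 0.0262). Fasn had 17.2, 44.6 and 68.9 CPM against 7.5, 23.0, 9.3 and 5.4, so RYGB replicate 1 lay under sham replicate 2. Fasn rose by a log2 fold change of 1.85 ± 0.51 (SE, adjusted p = 0.0483). In these data Srebf1 and Scd1 were lower where Fasn and Elovl6 were higher, whereas in the liver Srebf1, Fasn and Scd1 were all lower.

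Srebf1, Scd1 and Scd2 were called in each of the 13 other fits run in the jejunum. Fasn was called in 6 of these and Elovl6 in 7. Both were lost when sham replicate 1, 3 or 4 or RYGB replicate 2 or 3 was left out, and with the lane as a term, which in effect drops RYGB replicate 2, the library alone in its lane, and Fasn also when genes under a mean of 10 CPM were dropped. Within lane 1, with 2 RYGB and 4 sham libraries, Scd1 differed by -5.41, Srebf1 by -1.99, Scd2 by 2.06, Fasn by 1.73 and Elovl6 by 1.69 on the log2 scale. Of the genes not called, Acly had a log2 fold change of 0.59 (adjusted p = 0.136) and Me1 one of -1.88 (95% interval -4.10 to 0.33), with 242 CPM in sham replicate 2 against 8.4 to 48.2 in the other sham libraries. Without sham replicate 2 the value of Me1 was -0.95 (adjusted p = 0.470), and that of Acacb turned from -0.15 to 0.63 (adjusted p = 0.270). Acaca stayed at 2.3 to 6.3 CPM in the 7 libraries.

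Markers of epithelial and immune cells differed between the same jejunum libraries. The 7 enterocyte markers summed to 26988 to 51825 CPM in the RYGB group and 57536 to 84824 in the sham group, and 2 of 7 were called lower (Apoa4 and Lct). Of the 6 T cell markers tested 5 were called lower, with sums of 8.2 to 16.6 CPM against 38.5 to 61.6. The macrophage markers went the other way, with sums of 24.9 to 32.4 CPM against 8.3 to 17.7 and 1 of 4 tested called higher, Cd14 (adjusted p = 0.0049). Their part in the results on the lipogenic genes was not tested.

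Around the pathway in the jejunum 7 genes were called higher and 1 lower. Of 15 regulators, Mid1ip1, which encodes a partner of the acetyl-CoA carboxylases, was higher (17.1 to 30.7 CPM against 7.4 to 13.4, log2 fold change 1.17, adjusted p = 0.0212), and Thrb was lower (log2 fold change -1.41, adjusted p = 0.0209). Of 10 genes of elongation and desaturation 3 were higher, namely the elongase genes Elovl7 (log2 fold change 1.31, adjusted p = 0.0055) and Elovl1 (0.76, adjusted p = 0.0274) and Hsd17b12, the reductase of the elongation cycle (1.08, adjusted p = 0.0159). Of 6 genes of triglyceride assembly the phosphatase gene Lpin1 was higher (1.24, adjusted p = 0.0179). Of 7 genes of malonyl-CoA control 2 were higher, the AMP kinase subunit genes Prkaa2 (51.9 to 83.3 CPM against 11.6 to 38.7, log2 fold change 1.76, adjusted p = 0.0144) and Prkab1 (1.12, adjusted p = 0.0158). Of 9 genes of precursor and NADPH supply 0 were called. The median was 0.68 for elongation and desaturation and between -0.09 and 0.35 for the other 4 lists.

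In the duodenum, which food bypasses after RYGB, 0 of the 9 listed genes were called, and 1 of the 10850 genes tested was (0.00922%). The gene with the largest difference of the 9 was Me1. It had 45.8, 23.9 and 16.3 CPM in the RYGB group and 312, 252, 219 and 96.7 in the sham group. All RYGB libraries lay below all sham libraries, as in 2.93% of all genes (15.6% did not overlap in either direction), and the log2 fold change was -2.90 (95% interval -3.91 to -1.89, unadjusted p = 1.5e-04, adjusted p = 0.0933). Without sham replicate 4 the test called Me1 lower (-3.25, adjusted p = 0.0095) and also Acacb (-1.99, adjusted p = 0.0269), with 757 genes called in all.

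Acacb in the duodenum had 8.6, 3.7 and 6.3 CPM in the RYGB group and 45.5, 21.0, 19.0 and 4.2 in the sham group, so sham replicate 4 lay among the RYGB libraries. Sham replicate 4 was the lowest sham library in 6 of the 9 genes, and it had the lowest Pdx1 of the sham libraries, 14.5 CPM against 47.3 to 160. Elovl6 had 151 to 298 CPM in the RYGB group and 155 to 527 in the sham group (log2 fold change -0.46, adjusted p = 0.573). Srebf1 had 87.9 to 148 against 109 to 211, and Fasn 14.7 to 30.3 against 9.6 to 41.8. Scd1 ran from 2.9 to 100.1 CPM in the RYGB group and from 2.8 to 53.7 in the sham group, and the 95% interval of its log2 fold change was -3.61 to 2.09. Acly and Acaca differed by 0.04 and -0.11, and Scd2 by -0.42, each with a 95% interval that spans 0.

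The median over the 9 genes was -0.42 in the duodenum, and 0.12 over all genes. The 7 enterocyte markers summed to 34806 to 45869 CPM in the RYGB group and 46255 to 57837 in the sham group, with 0 of 7 called. Of the 8 pancreatic acinar markers 1 was listed, Cela1. It was at 1979 and 4817 CPM in sham replicates 1 and 2 and at 5.9 to 517 in the other 5 libraries. Sham replicates 1 and 2 were the libraries with the most Me1, Acacb and Fasn. The T cell markers summed to 40.6 to 91.9 CPM in the RYGB group and 14.7 to 47.0 in the sham group, and the macrophage markers to 17.0 to 34.8 and 6.4 to 24.3, with 0 called in either list. The part of these markers was not tested. Of the 5 lists around the pathway, with 15, 9, 10, 6 and 7 genes tested, 0 genes were called.

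In the villi labelled ileum 2 of the 9 listed genes were called higher in the RYGB group and 0 lower, where 6.05% of the 10735 genes tested were called, 1.64% as higher and 4.42% as lower. Me1 had 24.2, 211, 19.0, 78.2 and 55.6 CPM in RYGB replicates 1 to 5 and 2.7, 8.3, 5.8, 4.1 and 10.4 in sham replicates 1 to 5. The groups did not overlap, and RYGB replicate 2 was highest. The log2 fold change was 3.02 ± 0.56 (SE, adjusted p = 0.0117). Acacb had 7.9, 5.1, 10.4, 12.2 and 10.0 CPM in the RYGB group and 0.6, 1.0, 1.7, 1.4 and 1.8 in the sham group, with no overlap and a log2 fold change of 2.12 ± 0.23 (SE, adjusted p = 0.0017). All RYGB libraries lay above all sham libraries in 2.42% of all genes, and below them in 6.92%.

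Both genes were called in every other fit that tested them, 15 for Me1 and 14 for Acacb. The 5 RYGB libraries of the ileum were in lane 1 and the 5 sham libraries in lanes 2 and 3, so that a difference of lane and one of surgery cannot be told apart. Of the genes not called, Elovl6 had 51.8, 85.2, 61.0, 127 and 64.1 CPM in the RYGB group and 57.4, 54.5, 48.0, 33.0 and 42.4 in the sham group (log2 fold change 0.67, adjusted p = 0.0907). Srebf1 had 145 to 235 CPM against 96.7 to 505, Fasn 9.7 to 32.9 against 5.7 to 16.6, Scd1 0.6 to 16.5 against 1.2 to 23.8 and Scd2 2.6 to 16.0 against 1.7 to 26.7. Acly (log2 fold change -0.20) and Acaca (0.05) overlapped between the groups. The median was 0.05 over the 9 genes and -0.09 over all genes.

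Distal position genes and immune markers also varied among the ileum libraries. Fabp6 was at 29.0 to 50.5 CPM in 4 of the 5 RYGB libraries and at 0.1 in RYGB replicate 4, against 0 to 22.9 in the sham libraries. Slc10a2 was at 1.6 to 53.7 CPM in the RYGB group and 0.2 to 2.5 in the sham group, and Gata4 overlapped. Of the 5 T cell markers tested 4 were called lower, with sums of 5.3 to 17.2 CPM against 23.9 to 61.0, and of 4 macrophage markers Cd14 was called higher, with sums of 10.1 to 21.7 CPM against 3.6 to 10.4. The 7 enterocyte markers summed to 50118 to 68362 CPM against 33378 to 60359, with Fabp1 called higher and Lct lower. Their part in the Me1 and Acacb values was not tested.

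Around the pathway in the ileum 2 of 9 genes of elongation and desaturation were higher, Hsd17b12 (82.2 to 94.2 CPM against 46.1 to 66.9, log2 fold change 0.70, adjusted p = 0.0088) and the dehydratase gene Hacd2 (9.2 to 12.2 against 5.3 to 7.8, 0.64, adjusted p = 0.0213). Of 7 genes of malonyl-CoA control 1 was higher, Prkaa2, with 21.1 to 29.3 CPM against 7.8 to 13.1 (log2 fold change 1.12, adjusted p = 0.0061). Of 15 regulators, 9 genes of precursor and NADPH supply and 6 of triglyceride assembly 0 were called. The medians of the 5 lists lay between -0.01 and 0.36.

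**Figure D5:**
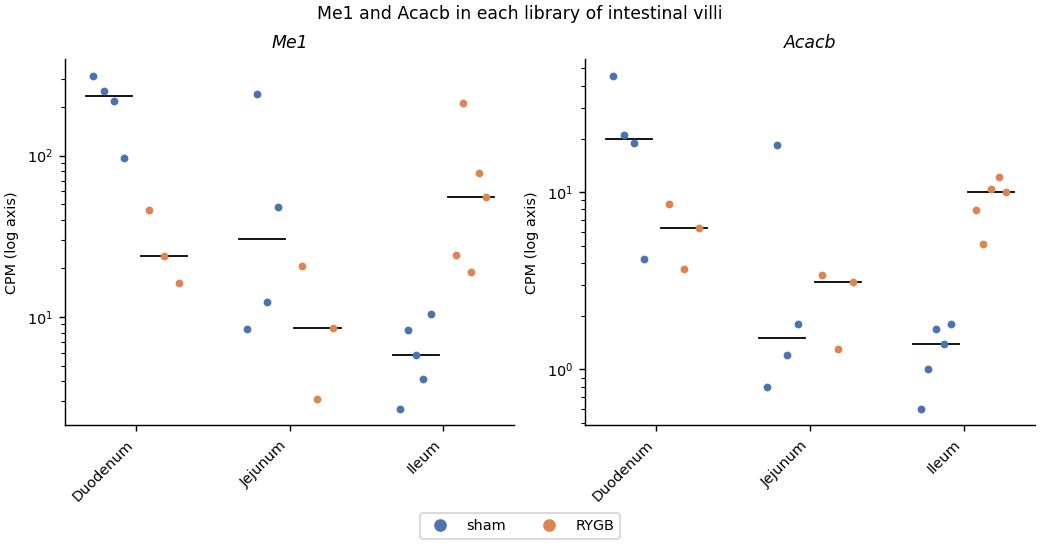
Me1 and Acacb (CPM, log axis) in each library of villi from the duodenum, jejunum and ileum, sham in blue and RYGB in orange, with a black bar at each group's median. Me1 is lower in all RYGB than in all sham libraries of the duodenum (16.3 to 45.8 against 96.7 to 312) and higher in all RYGB than in all sham libraries of the ileum (19.0 to 211 against 2.7 to 10.4).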

How the data were processed

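RNA was measured in 48 libraries of 6 tissues, prepared with a stranded mRNA kit. The submitters' processing notes name HTSeq and the build GRCm38; the aligner and the annotation are not given in the sources used here. The authors deposited CPM, counts scaled to the library total and rounded to 1 decimal, in 1 table per tissue. The deposited ileum and jejunum columns and 1 liver column, in which repeated or broken lines break the CPM total or range, were treated as a score until 12 broken liver lines had been left out and repeated lines, which held equal values, used once. Symbols were matched through Ensembl IDs. The rounding hides the value of 1 read, so depth is unknown and no counting interval was given; listed values sum to 925122 to 998777 CPM per library.

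Groups came from the labels. Within each tissue, limma 3.58.1 (R 4.3.3) with a trended prior was fitted to log2(CPM + 1) over genes that averaged 1 CPM or more, RYGB against sham, with Benjamini-Hochberg adjustment over all genes tested; intervals are at 95%. The fit was also run on simulated data with known folds and independent noise in each gene. Those data hold no effect shared by the genes of a library, so they cannot show how the fit handles one. Exon lengths were unions of GENCODE M21 exons. Alternatives were a pseudocount of 0.1 CPM, a minimum mean of 10 CPM or none, median ratio scaling, lane, replicate block, adjusted p alone and each library left out, and, chosen after seeing the data, adipocyte marker scaling (WAT) and an adipocyte marker covariate (WAT and muscle). The 10 genes and all gene lists were chosen with earlier results of these data known, so no list is independent support. Named beside the 10 genes were all called genes of the pathway lists, up to 3 per list and tissue by absolute log2 fold change. Also named were the gene with the most similar pattern to each gene compared, and markers that bear on a result. Same-numbered libraries correlated by -0.281 to 0.389 and in no tissue by over 0.1 in every pair, so replicate numbers were not taken to pair libraries.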

Additional observations from a re-analysis of the deposited data

Results flagged for a closer look

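In 96 groups of 4 or 5 libraries, 4 had a library set apart on the log2(CPM + 1) scale, where chance gives about 4.8. Srebf1 in liver RYGB replicate 1 was at 196 CPM against at most 81.3 in the other RYGB livers, a gap of 0.911 of the group's range. Me1 in muscle RYGB replicate 3 was at 146 CPM against at least 213 in the others, a gap of 0.841 of the range. Acaca in ileum RYGB replicate 5 was at 8.0 CPM against at most 4.3, a gap of 0.717 of the range. Scd1 in WAT sham replicate 4 was at 21784 CPM against at least 44186, a gap of 0.944 of the range.

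The differences in Me1 had opposite signs in different tissues. Its log2 fold change was 3.02 in the ileum and -2.90 in the duodenum, a difference of 5.92, and it was -0.94 in the liver, a difference of 3.96 from the ileum. The test called Me1 in the ileum and the liver, and not in the duodenum (limma, adjusted p = 0.0933). In each of these tissues the RYGB and sham libraries did not overlap. This contrast of tissues was not tested, because each tissue table has its own normalization, and in the ileum lane and surgery cannot be told apart.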

How the results depend on the processing

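Of 91 counts of called genes under another setting 75 stayed within 1.5 times the reported count, and of 803 fold changes of single genes 694 kept their direction and side of the threshold, 33 gained and 32 lost the call and 44 changed sign, all of them in genes that were not called. Leaving out each library gave 3 to 8 called genes in the liver, 0 to 5 in WAT, 0 to 2 in the duodenum and 3 to 6 in the jejunum. The replicate block gave 5 in WAT (Thrsp, Acly, Acaca, Fasn and Elovl6) and 2 in the duodenum, where it drops sham replicate 4, and 7, 0, 5 and 2 in liver, muscle, jejunum and ileum; the replicate numbers are not shown to pair libraries. The lane as a term gave 1 in WAT and 3 in the jejunum; it could not be fitted in the duodenum, with 1 lane, or the ileum. Adipocyte marker scaling gave 9 in WAT. A minimum mean of 10 CPM gave 1 in the ileum, since Acacb was then not tested. Counts over all genes moved between these fits too and are given below as ranges, so these counts carry no share of all genes.

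The signs that changed were these. In WAT, Scd1 was 0.50 with adipocyte marker scaling, 0.92 with the marker covariate and -0.51 to 0.23 over left-out libraries, and Acacb -0.13 to 0.36. In muscle with the lane as a term, Thrsp was 1.29, Fasn 1.99, Elovl6 0.93, Scd1 2.03 and Scd2 0.092; over left-out libraries Srebf1 was -0.28 to 0.15, Thrsp -0.58 to 0.31, Fasn -1.26 to 0.24, Elovl6 -0.31 to 0.20 and Scd1 -1.74 to 0.11, and Elovl6 was 0.0046 with the marker covariate. In the duodenum Acly was -0.090 with median ratio scaling, -0.022 with the replicate block and -0.076 to 0.17 over left-out libraries, Acaca -0.35 to 0.089, Fasn -0.45 to 0.22, Scd1 -2.20 to 0.14 and Scd2 -1.14 to 0.12. In the jejunum Acacb was 0.15 with the lane and -0.51 to 0.63 over left-out libraries. In the ileum Acaca was -0.14 to 0.17 and Srebf1 -0.49 to 0.10. The cause was not tested.

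Median ratio scaling moved the all-gene median of the log2 fold change from 0.13 to -0.011 in the liver, from 0.11 to -0.0012 in WAT and from 0.12 to 0.0045 in the duodenum. It added Elovl6 to the called genes in the liver (lower) and the ileum (higher). Counts over all genes ran from 329 to 1236 in the liver (836 as reported), 271 to 7915 in WAT (3231), 0 to 210 in muscle (0), 0 to 757 in the duodenum (1), 462 to 1085 in the jejunum (1058) and 312 to 856 in the ileum (650). Depth is unknown, so low values such as Scd1 in the RYGB jejunum carry an error that could not be given.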

Other observations

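The genes whose pattern was most like each of the 10 were found over the 12 group means of log2(CPM + 1), 6 tissues by surgery, among 8771 genes listed in all 6 tables. The means share tables and normalization, and a large difference between tissues dominates each pattern, so the values are descriptions. Acaca was closest to Eif3d (Pearson r = 0.990), Fasn to Med7 (0.981), Scd2 to Ssh2 (0.979), Acly to Foxred1 (0.978) and Acacb to Gatc (0.976). Scd1 was closest to Zfp763 (0.971), Elovl6 to Hopx (0.970), Me1 to Psmd4 (0.930) and Srebf1 to Zfp963 (0.869). Srebf1 had the lowest best match of the 9 genes compared. Thrsp, not listed in the gut tables, could not be compared.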
